A study of Bos taurus with 12 samples.

Results

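The interferon-stimulated genes examined here are 37 genes that cells switch on when interferon reaches them, read from the blood of dairy cows shortly after calving. They were taken from the count table by gene name where their raw counts averaged 10 or more. That gave 34 of the 37 named genes among 27429 rows and 11990 genes tested, and USP18, BST2 and SP100 were not matched by name. The libraries came from 12 female Holstein cows, 1 for each cow, from jugular blood drawn on day 7 after calving. Of these, 6 cows had received a parenteral trace element (mineral) supplement and 6 were controls without it. All 12 cows share the breed, the stage, the RNAlater preservation and the haemoglobin depletion of their RNA. The protocol describes blood, while the cell type label reads white blood cell, and the elements given, their dose and the time of dosing were not stated.

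Type I interferons act through a receptor, IFNAR, whose signal brings STAT2 and IRF9 into a complex that enters the nucleus and switches on antiviral genes. Those genes encode sensors of viral nucleic acid, enzymes and binding proteins that block viral replication, the ubiquitin-like protein ISG15 with its conjugating enzymes, and transcription factors such as IRF7 that sustain the response. In cattle the same genes are known from early pregnancy, when interferon tau made by the embryo raises ISG15, MX and OAS transcripts in circulating leukocytes. Bovine blood holds neutrophils, lymphocytes and monocytes, and its RNA is the sum over these cells.

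Total counts ranged from 6778640 to 16851541 in the supplemented and from 6783852 to 11307619 in the control libraries. The pan-leukocyte gene PTPRC lay between 1318 and 2421 CPM (counts scaled to a common library size after TMM, a trimmed mean that equalises libraries) in every cow, so leukocyte RNA was present in each library. The make-up of the libraries differed widely: S100A8, a calcium-binding protein of neutrophils and monocytes, ranged from 55.4 to 19470 CPM and the B cell receptor component CD79A from 160 to 1250 CPM. Supplemented cow 6 stood apart, with a TMM factor of 0.717 against 0.946 to 1.09 in the other cows, so that scaling raises all its CPM values. In such bulk samples fewer cells of a type and less RNA per cell cannot be told apart.

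The first question was whether the supplement went with another level of the interferon response. No interferon-stimulated gene was separated from the spread between cows. By edgeR's quasi-likelihood test with Benjamini-Hochberg adjustment 0 of the 34 members passed 0.05, as did 0% of the 11990 genes tested, and each member's adjusted p was 0.999. Before adjustment 0 members fell under 0.05, against 1.59% of all genes tested. The fold changes of 19 members were positive and of 15 negative, where 51.5% of all genes tested were positive. Their median log2 fold change (supplemented minus control) was 0.03 with a range from -0.63 to 1.63, and the median over all genes tested was 0.01. In 34 of 34 members the CPM of the groups overlapped, and groups without overlap made up 0.05% of all genes tested. In the authors' deposited table no member had an adjusted p under 0.05, where 0.014% of its 14288 genes did, and none an unadjusted p under 0.05, where 2.76% did. The lowest unadjusted p of a member in the authors' deposited table was 0.0856, for IFIT3.

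The ISG15 system was the first of the roles examined. ISG15 (ENSBTAG00000014707), a ubiquitin-like protein that is conjugated to other proteins and also secreted, had 8.4 CPM at the lowest, 38.7 at the median and 90.8 at the highest in supplemented cows. In control cows the same values were 12.1, 18.1 and 268 CPM, the last of them in control cow 5. The groups overlapped, with the lowest cow in the supplemented group and the highest in the control group. The difference was -0.63 ± 0.87 (log2 fold change with SE) and reached 0.66 without control cow 5. UBA7, the enzyme that activates ISG15, averaged 63.2 ± 20.3 CPM with the supplement and 66.2 ± 24.2 CPM without (SD, 6 cows each). HERC6, which attaches ISG15 to proteins in mouse, averaged 57.2 ± 38.9 against 47.7 ± 32.8 CPM (SD, n = 6 each). TRIM21, a cytosolic antibody receptor and ubiquitin ligase, was steadier, at 33.5 ± 10.4 against 32.7 ± 3.54 CPM (SD, n = 6 each). DTX3L, the ubiquitin ligase partner of PARP9, had the lowest unadjusted edgeR p of the members (0.163; adjusted p = 0.999), with 50.3 ± 20.2 against 38.3 ± 13.1 CPM (SD, n = 6 each).

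The IFIT genes encode proteins that bind viral RNA, and each of them varied widely between cows. IFIT1 ranged from 5.69 to 126 CPM in supplemented cows, with a median of 43.7, and from 4.99 to 189 CPM in control cows, with a median of 15.8. IFIT2 ranged from 8.0 to 99.0 CPM (median 46.3) and from 8.66 to 245 CPM (median 17.1) in the same order. For both genes the supplemented medians were higher and the highest single cow was control cow 5. IFIT3 (ENSBTAG00000009768) had the largest fold change of the members, 1.63 ± 1.11 (SE), which rested on supplemented cow 6. Its levels in supplemented cows 1 to 6 were 42.4, 150, 13.4, 17.7, 90.2 and 1101 CPM. In control cows 1 to 6 they were 76.5, 8.40, 20.3, 137, 198 and 18.9 CPM. The IFIT3 level of supplemented cow 6 was higher than that of each other cow, and its log2 fold change was -0.28 without this cow. IFIT5 averaged 54.3 ± 40.8 against 38.9 ± 43.4 CPM (supplemented first; SD, n = 6 each; log2 fold change 0.49 ± 0.68, SE), and its fold change was 0.04 without supplemented cow 6 and 1.31 without control cow 5.

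**Figure D1:**
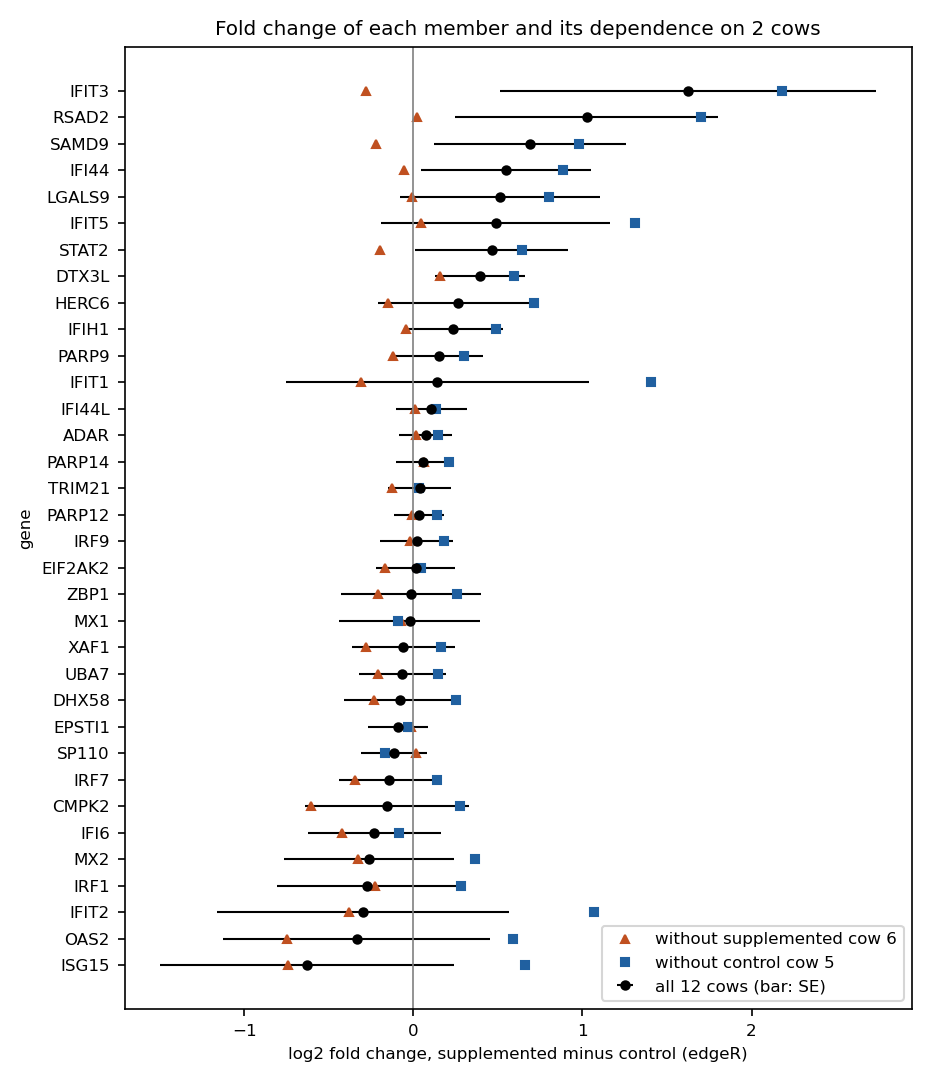
The log2 fold change (supplemented minus control, edgeR) of each of the 34 members, with its SE as a bar for all 12 cows, is plotted against the gene name, and triangles and squares give the value without supplemented cow 6 and without control cow 5. IFIT3 lies at 1.63 with all cows and at -0.28 without supplemented cow 6, and ISG15 moves from -0.63 to 0.66 without control cow 5.

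Enzymes and binding proteins that act on the virus came next. RSAD2 (viperin), which makes a chain-ending nucleotide, had a median of 12.8 CPM in supplemented cows (3.21 to 69.7) and of 5.502 CPM in control cows (2.72 to 28.3). Its log2 fold change was 1.02 ± 0.78 (SE), which became 0.02 without supplemented cow 6. CMPK2, the mitochondrial nucleotide kinase gene next to RSAD2 in the RefSeq gene order, averaged 6.23 ± 4.40 against 6.99 ± 4.68 CPM (SD, n = 6 each). OAS2, which makes the messenger that activates RNase L, was measured on 5 to 94 raw counts a library. Its CPM lay between 0.677 and 7.38 in supplemented and between 0.494 and 13.9 in control cows, so single values of OAS2 carry counting error. IFI44 averaged 10.8 ± 9.53 against 7.46 ± 3.97 CPM, and IFI6, an endoplasmic reticulum protein, 37.6 ± 19.0 against 44.3 ± 21.8 CPM (SD, n = 6 each). SAMD9, which restricts poxviruses, stood at 893 CPM in supplemented cow 6 and at 91.3 to 314 CPM in the other cows, with a log2 fold change of 0.69 that was -0.22 without this cow.

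The MX genes encode dynamin-like GTPases that trap viral components. MX1 (ENSBTAG00000030913) stood at 61.4 CPM in supplemented cow 2 and at 349 to 412 CPM in the other supplemented cows. In control cows it was 131 CPM in cow 4, 259 CPM in cow 5 and 303 to 490 CPM in the rest. The group means were 335 ± 137 and 340 ± 139 CPM (SD, n = 6 each), a log2 fold change of -0.02 ± 0.42 (SE). MX2 averaged 66.5 ± 20.8 against 79.8 ± 74.7 CPM (supplemented first; SD, n = 6 each), with 220 CPM in control cow 5. MX2 was thus highest in a cow where MX1 was below its own median.

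IFIH1, DHX58, ZBP1, EIF2AK2 and ADAR, genes that sense or act on nucleic acid, varied less than the MX genes. Among the former the ratio of the highest to the lowest CPM was at most 5.71, for ZBP1, against 7.99 for MX1 and 9.56 for MX2. OAS2, of the same role but described above, spanned a ratio of 28.2. IFIH1 (MDA5), which detects long double-stranded RNA, averaged 67.5 ± 30.9 against 57.3 ± 22.6 CPM (supplemented first; SD, n = 6 each), with 128 CPM in supplemented cow 6 and 103 CPM in control cow 5. Its relative DHX58 (LGP2) averaged 43.8 ± 15.9 against 46.3 ± 24.6 CPM, and the Z-nucleic acid sensor ZBP1 39.3 ± 21.9 against 39.7 ± 18.5 CPM (SD, n = 6 each). EIF2AK2 (PKR), the kinase that halts translation on double-stranded RNA, averaged 25.9 ± 9.73 against 25.7 ± 2.74 CPM, and the RNA-editing enzyme ADAR 100 ± 21.1 against 95.2 ± 14.1 CPM (SD, n = 6 each). None of these groups differed beyond the spread between cows.

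Of the transcription factors, STAT2 stood at 423 CPM in supplemented cow 6 and at 64.1 to 171 CPM in the other cows. Its log2 fold change was 0.46 ± 0.45 (SE) and -0.20 without this cow. IRF9, its partner, had nearly equal means of 170 ± 46.2 and 168 ± 48.0 CPM (SD, n = 6 each). IRF7 averaged 43.1 ± 16.1 against 47.7 ± 21.8 CPM (SD, n = 6 each). IRF1, a factor also induced by interferon gamma and by NF-kB, ranged from 211 to 1219 CPM in supplemented and from 246 to 1736 CPM in control cows, the highest in supplemented cow 2 and control cow 5. Its log2 fold change was -0.27 ± 0.53 (SE).

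The ADP-ribosyltransferases PARP9, PARP12 and PARP14 had log2 fold changes of 0.15, 0.03 and 0.06, of which PARP12 turned to -0.0033 with upper-quartile scaling and to -0.03 with no scaling factor. Their SE were 0.26, 0.15 and 0.16. PARP9 and DTX3L overlap in the RefSeq annotation (assembly ARS-UCD2.0), so their counts are uncertain, since the strand setting and the annotation used for counting were not stated. SP110, a nuclear body protein, averaged 134 ± 39.2 against 145 ± 17.5 CPM, and EPSTI1 144 ± 36.1 against 154 ± 25.5 CPM (SD, n = 6 each). LGALS9, the lectin galectin-9, ranged from 67.7 to 723 CPM in supplemented and from 53.1 to 383 CPM in control cows, a log2 fold change of 0.51 ± 0.59 (SE). XAF1, which promotes apoptosis, and IFI44L had log2 fold changes of -0.06 ± 0.30 and 0.11 ± 0.21 (SE).

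An interferon score, the mean log2 CPM of the 34 members, was taken for each cow. It was 5.15, 5.91, 4.96, 5.47, 6.01 and 6.71 in supplemented cows 1 to 6 and 5.84, 5.18, 5.31, 5.49, 6.72 and 4.997 in control cows 1 to 6. The group means were 5.70 ± 0.642 and 5.59 ± 0.626 (SD, n = 6 each), a difference of 0.11 that is smaller than either SD. Each group held 1 cow near 6.7 and 5 cows between 4.96 and 6.01. The difference was -0.08 without supplemented cow 6 and 0.34 without control cow 5. A first index sequence common to 5 supplemented and 3 control libraries gave a difference of -0.18 among them. The other index held 1 supplemented and 3 control libraries, too few for a comparison.

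The second question was whether the genes moved as a unit from cow to cow. Their median spread between cows was wider than that of all genes tested. The median SD of log2 CPM over the 12 cows was 0.74 for the members and 0.44 for all genes tested. The median ratio of the highest to the lowest CPM was 4.87 and 2.85 in the same order. Some members lay below the all-gene median SD, such as PARP12 (0.23), ADAR (0.25) and PARP14 (0.26). IFIT3 spanned the widest ratio of the members, 131, and ADAR the narrowest, 1.67. Over the 561 pairs of members the median Pearson correlation of log2 CPM was 0.62, with 82.5% of pairs positive and 62.7% above 0.5. Over all pairs of genes tested the median was 0.00053, with 50.03% positive and 20.2% above 0.5. The median over member pairs was 0.66 among the 6 supplemented and 0.70 among the 6 control cows. These correlations are descriptions over 12 cows that share library scaling, and a single high cow lifts many pairs at once: the median was 0.38 without supplemented cow 6 and control cow 5 and 0.46 with no scaling factor.

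**Figure D2:**
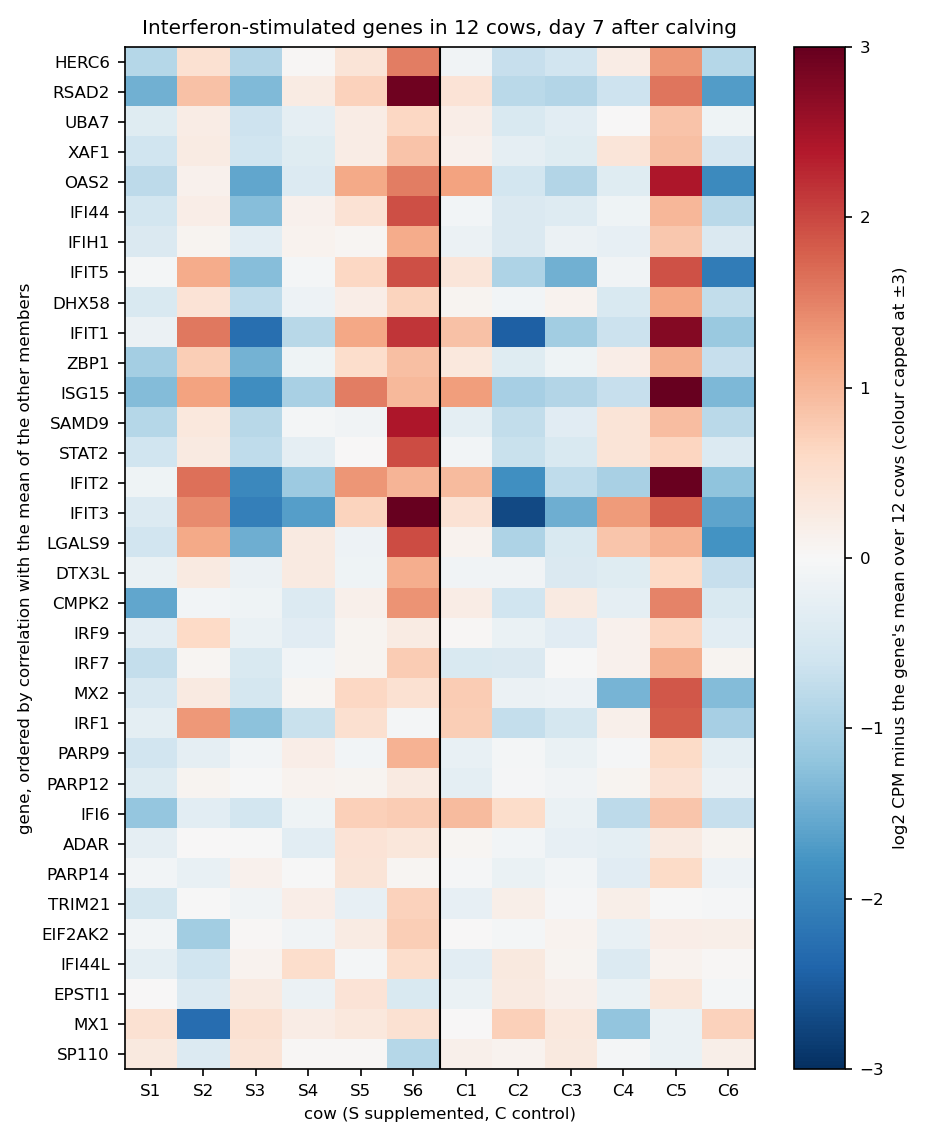
Rows are the 34 genes, ordered by their correlation with the mean of the other members, columns are the 6 supplemented (S) and 6 control (C) cows, and colour gives log2 CPM minus the gene's mean over 12 cows. Columns S6 and C5 are warm in nearly all rows, and S3 and C6 are cool in most. The bottom rows MX1 and SP110 run the other way in these columns, except that MX1 is warm in S6.

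Within single libraries most members deviated in the same direction. In supplemented cow 6 and in control cow 5, 32 of 34 members lay above their own median over the 12 cows, while 47.3% and 48.5% of all genes tested did so. In supplemented cows 2 and 5 and control cow 1 the counts were 26, 27 and 24 members. At the other end were control cow 6 with 5 members, supplemented cow 1 with 6, supplemented cow 3 and control cow 3 with 7 each and control cow 2 with 8. Supplemented cow 4 with 14 and control cow 4 with 16 members lay between. High and low cows occurred in both groups.

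Control cow 5 and supplemented cow 6, the cows with the highest scores, shared most of their raised members but differed in the order of the most raised. In control cow 5 the farthest above their own means were ISG15 (3.09 on the log2 scale), IFIT2, IFIT1 and OAS2. In supplemented cow 6 they were IFIT3 (4.28), RSAD2, SAMD9 and IFIT1, while IRF1 was among the 4 lowest together with SP110, EPSTI1 and PARP14. The first principal component of the members, taken without scaling genes to equal variance, held 77.3% of their variance, and the second held 8.53%. On the first, 30 of 34 loadings had the same sign, but the members of widest spread weighed most. Loadings were 0.39 for IFIT3, 0.35 for IFIT1 and 0.30 for ISG15, against 0.03 for PARP12 and for ADAR, so 77.3% is mainly the share of such genes. On the second component, with IFIT3 positive, supplemented cow 6 (3.45) and control cow 4 (2.06) lay at one end and control cow 5 (-1.9996) and control cow 1 (-1.67) at the other. IFIT3 (0.41), SAMD9 (0.30) and STAT2 (0.24) had positive loadings there, and ISG15 (-0.37), IFIT2 (-0.36) and MX2 (-0.28) negative ones.

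Pairs within a family or side by side in the genome differed in how closely they moved. IFIT1 and IFIT2 followed each other closely (r = 0.97), and IFIT1 and IFIT3 less so (r = 0.87). The log2 ratio of IFIT3 to IFIT1 was 3.13 in supplemented cow 6 and 2.91 in control cow 4, and between 0.06 and 1.21 in the other 10 cows. These same cows had the highest neutrophil marker scores, 10.8 and 8.52, against at most 7.27 in the others. STAT2 and SAMD9 were the pair with the highest correlation (r = 0.98), although STAT2 acts in the signal and SAMD9 is an effector. RSAD2 and its neighbour CMPK2 correlated at 0.80 and the overlapping genes PARP9 and DTX3L at 0.84. The adjacent genes MX1 and MX2 did not move together (r = -0.06, Spearman's rho -0.41), and IFI44 and IFI44L only weakly (r = 0.30, rho 0.16). Reads that fit more than 1 IFIT or MX paralog may have been split or dropped by the counting, whose handling of such reads was not stated.

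**Figure D3:**
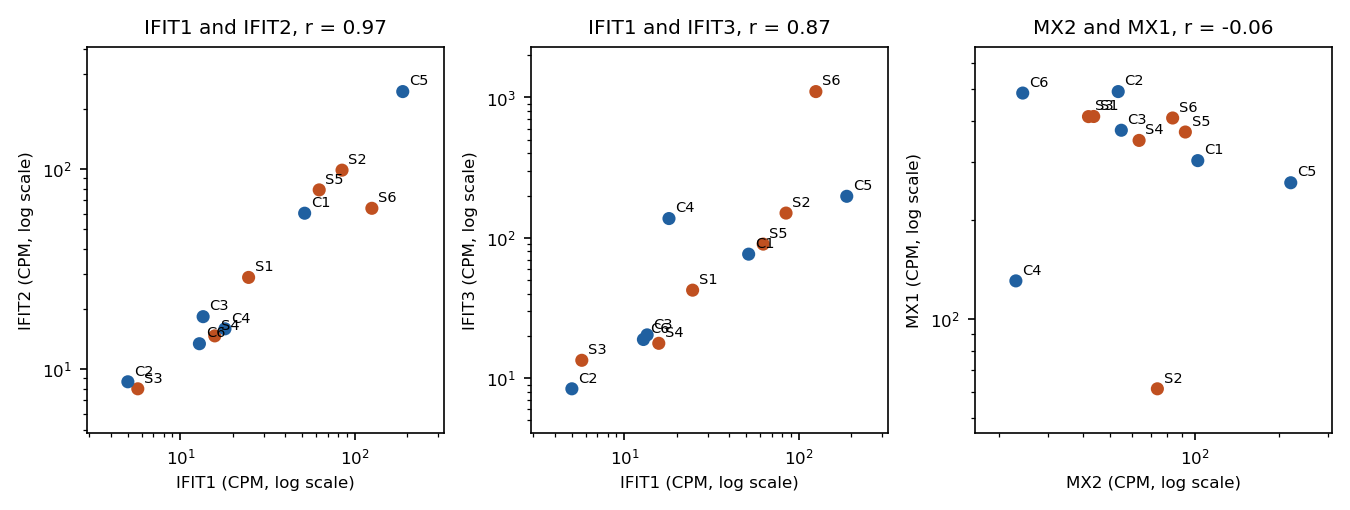
Each panel plots the CPM of a pair of members in the 12 cows on log axes, with supplemented cows (S) in orange and control cows (C) in blue. IFIT1 and IFIT2 lie along a line, IFIT3 of cows S6 and C4 lies above the line of the other cows against IFIT1, and MX1 is low in S2 and C4 at unlike MX2 levels.

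Each member was set against the mean of the other 33. For 20 members r was above 0.8, for 28 above 0.5 and for 3 below 0. HERC6 (0.96), RSAD2 (0.95), UBA7 (0.94), XAF1 (0.94) and OAS2 (0.94) followed the others most closely. Without supplemented cow 6 and control cow 5 these were still between 0.84 and 0.94, and ISG15 stood at 0.95. The values of PARP9, PARP12, PARP14 and IRF7 fell to 0.13, 0.31, 0.21 and 0.35 without those cows, so their relation to the other members rested on these libraries.

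The genes with a negative correlation were SP110 (r = -0.81), MX1 (-0.30) and EPSTI1 (-0.21), of which EPSTI1 stood at 0.08 without supplemented cow 6. By Spearman's rho MX1 stood at -0.66. Without supplemented cow 6 and control cow 5 the r was -0.68 for SP110, -0.61 for MX1 and -0.31 for EPSTI1. SP110 (ENSBTAG00000015752) was 75.2 CPM in supplemented cow 6 and 102 CPM in supplemented cow 2, and 118 to 179 CPM in the other cows. The r of SP110 with the B cell marker score, the mean log2 CPM of 13 B cell genes, was 0.95. The r of MX1 was 0.59 with that score and -0.78 with the plasma cell score. IFI44L (0.11) and EIF2AK2 (0.26) were nearly unrelated to the other members, and both turned negative without supplemented cow 6 and control cow 5 (-0.47 and -0.38).

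**Figure D4:**
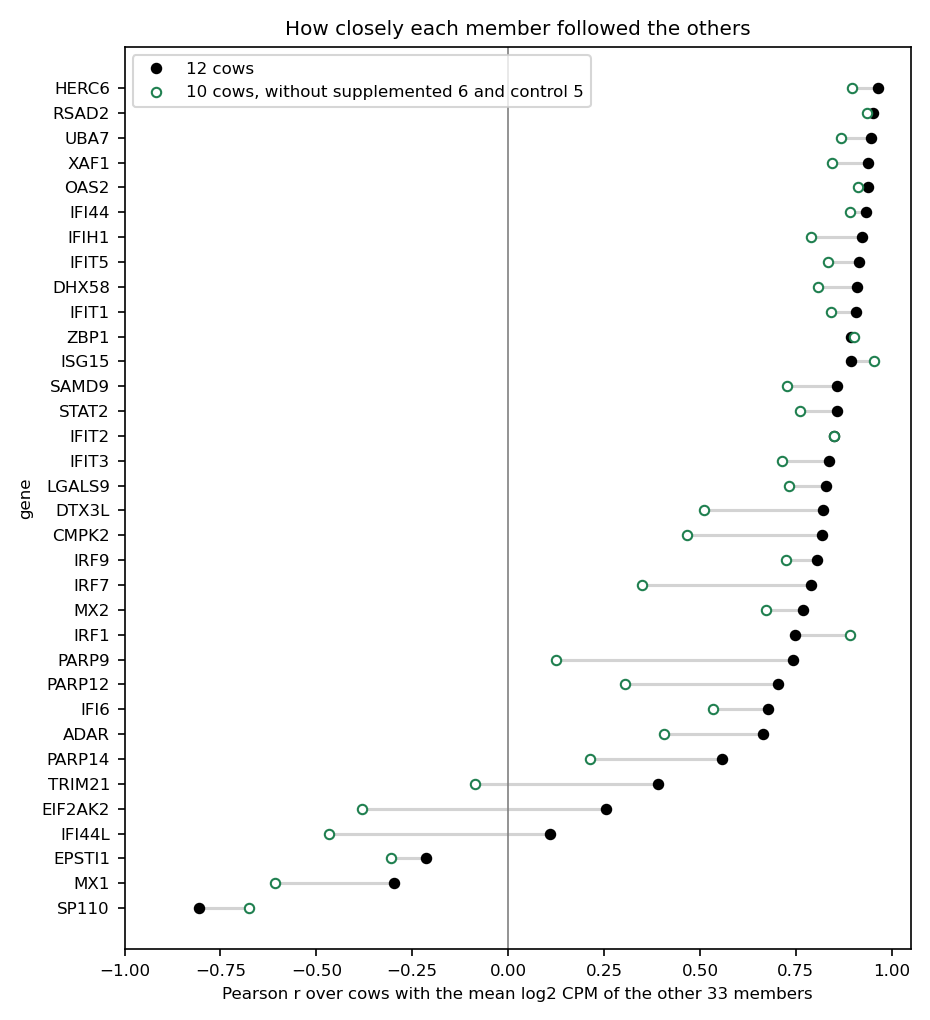
The horizontal axis is the Pearson correlation, over cows, of each member's log2 CPM with the mean of the other 33 members, for all 12 cows (filled) and for the 10 cows other than supplemented cow 6 and control cow 5 (open). HERC6 is at the top with 0.96 and SP110 at the bottom with -0.81, and PARP9 moves from 0.74 to 0.13.

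The third question was how the members related to the cell types in the blood. The interferon score was higher in cows with higher platelet, monocyte, neutrophil and NK cell marker scores and lower in cows with a higher B cell marker score. Over the 12 cows Pearson's r was 0.85 with the platelet score (Spearman's rho 0.91), 0.77 with the monocyte and macrophage score (0.76), 0.76 with the neutrophil score (0.78) and 0.75 with the NK and cytotoxic cell score (0.83). With the B cell score it was -0.78 (rho -0.85). With T cell and erythroid scores r was 0.62 and 0.59. Without the 2 cows farthest from the median of each marker score, r was 0.75 for platelets, 0.62 for monocytes, 0.82 for neutrophils, 0.68 for NK cells, -0.75 for B cells, 0.49 for T cells and 0.50 for erythroid cells. For the plasma cell score (0.32) and the score of plasmacytoid dendritic cells, the main interferon-producing cells (0.32), r became -0.05 and -0.25, so those relations rested on the cows left out. The plasmacytoid dendritic cell list shares GZMB with the NK list, and whether its genes are specific to these cells here was not tested. Its score is therefore no measure of how many such cells a cow had. No p is given, because the members were chosen with earlier results known, and 9 marker scores were examined. The marker scores share high and low cows. Supplemented cow 6 had the highest neutrophil, monocyte and NK scores and the lowest B cell score. Whether the relations above are separate from each other was not tested.

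**Figure D5:**
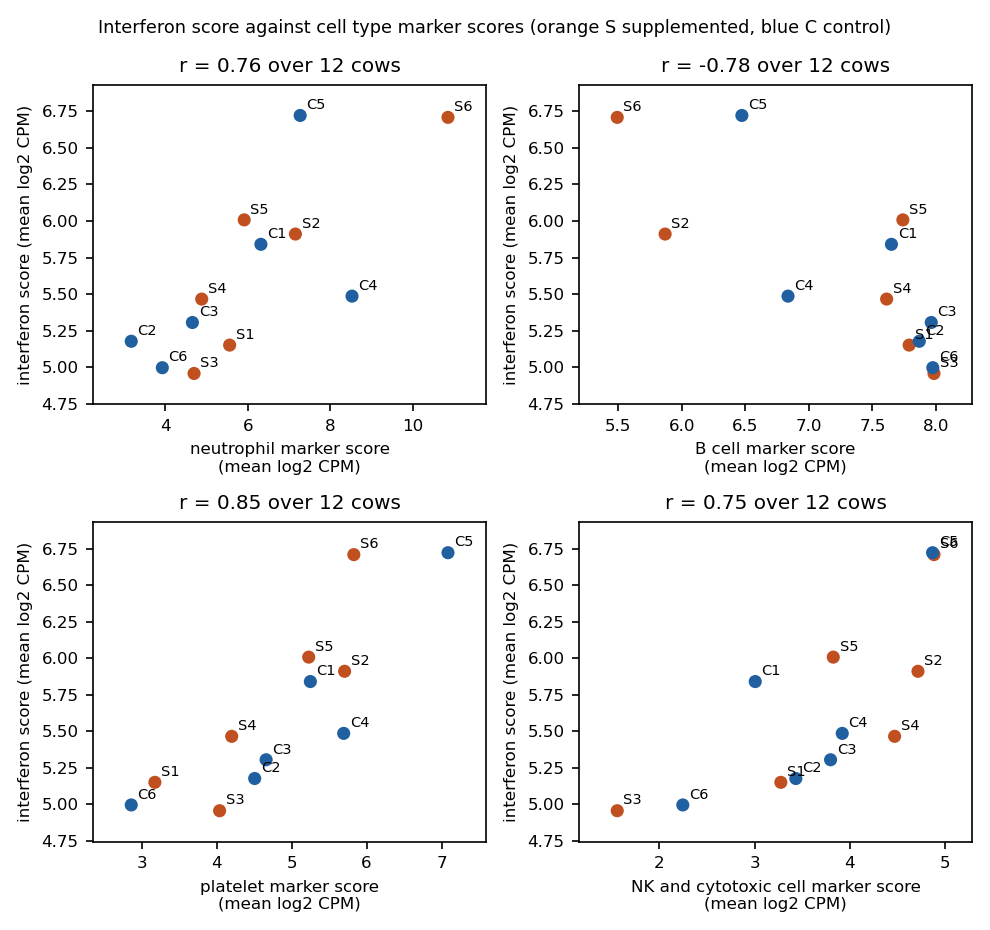
The interferon score of each cow (mean log2 CPM of the 34 members) is plotted against 4 marker scores (mean log2 CPM of the cell type's genes), with supplemented cows (S) in orange and control cows (C) in blue. C5 and S6 lie at the top of every panel, and the cows with the highest B cell scores have the lowest interferon scores.

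Single members differed in the score with which their r was highest, but a high r was not confined to a single score. LGALS9 tracked the monocyte score most closely of all members (r = 0.98). Its r was also 0.88 with the neutrophil, 0.87 with the NK and -0.89 with the B cell score. IFIT3 (0.96), STAT2 (0.93) and SAMD9 (0.90) tracked the neutrophil score, and with the monocyte score they stood at 0.87, 0.83 and 0.84. ISG15 and IFIT2 were less tied to neutrophils (0.54 and 0.57) and PARP14 hardly at all (0.12). XAF1 had the highest r with the platelet score (0.91), and stood at 0.82 with both the neutrophil and the monocyte score. With the neutrophil score 30 of 34 members were positive, while 47.7% of all genes tested were, and with the B cell score 5 of 34 were positive, against 51.7%. When the neutrophil score was removed from each member by regression, the median correlation between members was 0.49, and it was 0.47 after the B cell and 0.51 after the monocyte score.

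The levels of the marker lists behind these scores differed widely between cows of each group. Summed CPM over the 13 neutrophil genes tested (of 15 named) ranged from 1058 to 101672 in supplemented and from 604 to 14210 in control cows. The 10 monocyte genes (of 12) summed to 970 to 6874 and 717 to 4557 CPM, and the 13 B cell genes (of 13) to 988.4 to 6170 and 1873 to 5928 CPM. The 5 platelet genes (of 9) summed to 191 to 1086 and 133 to 2825 CPM. The NK and cytotoxic genes (12 rows for 11 of 12 names) summed to 299 to 1027 and 362 to 712 CPM, and the 14 T cell genes (of 15) to 668 to 3011 and 704 to 2697 CPM. The 5 plasma cell genes (of 7) summed to 247 to 645 and 261 to 543 CPM, and the 7 erythroid genes (of 12) to 16.87 to 425 and 10.5 to 357 CPM. The plasmacytoid dendritic cell list summed to 335 to 1375 and 400 to 1588 CPM. Of its 11 names 10 were found, and its 10 rows tested do not include PTCRA, so they are fewer than 10 distinct genes. PTCRA of the plasmacytoid dendritic cell list and CA1 of the erythroid list had 0 counts in every cow. The part of the cell types in the interferon score was not tested. With a neutrophil, B cell or monocyte score as a term in the edgeR fit, 0 members passed and the median fold change was -0.06, -0.04 and -0.05.

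Other genes of the interferon pathway were read from lists beside the members. None passed in edgeR, adjusted or at an unadjusted p under 0.05, where 0% and 1.59% of all genes tested did. Over all genes tested, set beside each list below, 51.5% of fold changes were positive (median 0.01). Interferons themselves were scarcely counted: of 14 names, 7 were found, and besides IFNG none reached the count minimum or had over 2 raw counts in any library. IFNG, made by T and NK cells, had 1 to 42 raw counts and 1.82 ± 1.78 against 1.12 ± 0.679 CPM (supplemented first; SD, n = 6 each; log2 fold change 0.70 ± 0.71, SE). Of 17 receptor and signalling genes, 12 had a positive and 5 a negative fold change (median 0.28). Among them JAK1, a kinase bound to the receptor, averaged 704 ± 188 against 574 ± 54.6 CPM, and the receptor subunit IFNAR2 145 ± 77.0 against 99.1 ± 33.9 CPM (SD, n = 6 each), both highest in supplemented cow 6. PTPN6, a phosphatase that dampens signalling, averaged 740 ± 266 against 630 ± 171 CPM (SD, n = 6 each).

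Of 14 nucleic acid sensing genes, 8 were positive and 6 negative (median 0.05). MYD88, an adaptor of Toll-like receptors, stood at 1382 CPM in supplemented cow 6 and averaged 383 ± 491 against 206 ± 77.4 CPM (SD, n = 6 each). UNC93B1, which carries Toll-like receptors to endosomes, averaged 297 ± 42.4 against 310 ± 17.1 CPM, and TLR7, a receptor of single-stranded RNA, 46.7 ± 14.3 against 38.3 ± 5.76 CPM (SD, n = 6 each). Of 31 further antiviral genes, 18 were positive and 13 negative (median 0.06). IFITM1, which blocks virus entry at membranes, had the lowest unadjusted edgeR p of these (0.052; adjusted p = 0.999), with 735 ± 385 against 455 ± 149 CPM (SD, n = 6 each). It stood at 1498 CPM in supplemented cow 6 and at 453 to 693 CPM in the other supplemented cows. IFITM5 averaged 2.68 ± 2.22 against 5.32 ± 3.19 CPM and NLRC5, a transactivator of MHC class I genes, 260 ± 53.7 against 274 ± 28.3 CPM (SD, n = 6 each).

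Of 17 interferon gamma and antigen presentation targets, 6 were positive and 11 negative (median -0.14). B2M, the light chain of MHC class I, averaged 4251 ± 1397 against 3946 ± 1712 CPM, and the immunoproteasome subunit PSMB8 659 ± 101 against 725 ± 73.8 CPM (SD, n = 6 each). GBP2, a guanylate-binding protein, stood at 195 CPM in control cow 6, and the adhesion molecule ICAM1 at 255 CPM in control cow 5, with log2 fold changes of -0.89 ± 0.51 and -1.63 ± 1.13 (SE). In this list 10 of 17 genes correlated positively with the interferon score (median r 0.39), in the further antiviral list 24 of 31 (0.65), in the receptor and signalling list 14 of 17 (0.69) and in the sensing list 8 of 14 (0.16). Over all genes tested 47.7% were positive, with a median r of -0.07. Positive correlation thus held for most receptor and effector genes, while B2M had an r of 0.89 and PSMB8 of -0.55 within the same list.

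The genes outside the list with a pattern most like the interferon score were sought among 9138 named genes of at least 5 CPM. Over the 12 cows these were VCPIP1 (r = 0.97), a deubiquitinating enzyme, PLEK (0.97), the pleckstrin of platelets and leukocytes, and ZNFX1 (0.96), a helicase-like protein that binds RNA. The ubiquitin ligase RNF19B (0.96), the cytoskeletal proteins VCL (0.95) and ZYX (0.94), the protein kinase A subunit PRKAR1A (0.94), the antiviral enzyme OAS1Z (0.94), the glutaredoxin GLRX (0.94) and the glycogen phosphorylase PYGL (0.94) followed. PLEK ranged from 37.1 CPM in control cow 6 to 693 CPM in control cow 5, and OAS1Z from 7.18 CPM in supplemented cow 3 to 121 CPM in supplemented cow 6. Without supplemented cow 6 and control cow 5 these 10 correlations were 0.81 to 0.94. The remaining cows also entered the choice of the genes, so these values are no separate check. None of the 10 genes differed between the groups in edgeR (log2 fold changes from -0.15 to 0.56, each with an adjusted p of 0.999).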

How the data were processed

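RNA of 12 cows (6 supplemented, 6 control) was analysed from the gene counts deposited by the authors, which are raw whole numbers per gene and library. FastQC, STAR, featureCounts and DESeq2 and the build ARS-UCD1.2 are named, without roles, per the submitters' processing notes, with annotation and strand setting not given in the sources used here. In addition, the authors' deposited DESeq2 table gives a signal (mean normalised count), log2 fold changes with standard errors, a Wald score and p-values, per the file headers. Library indexes came from the deposited sequencing summary.

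The 11990 of 27429 genes whose raw counts averaged 10 or more were tested with edgeR 4.0.16 in R 4.3.3 (quasi-likelihood test, TMM scaling, two-sided, Benjamini-Hochberg over all genes tested, threshold 0.05). SE was derived from the F statistic, and a prior count of 2 entered log2 CPM. DESeq2 1.42.0, limma 3.58.1 (voom), other scalings, filters and terms, and omission of each cow were alternatives. The fit was tested on simulated data. Libraries of a group all differed by more than counting noise (chi-square over its degrees of freedom at least 16.94), and each is a separate animal.

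Members and lists were chosen with earlier results of these data known. Named genes are all members, of each pathway list the most counted and those of lowest p, and the genes most correlated with the score. Gene order came from RefSeq (ARS-UCD2.0), where 33 of 34 members matched by symbol; coordinates and sequences are not given here. Cow numbers only name animals.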

Additional observations from a re-analysis of the deposited data

Results flagged for a closer look

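In groups of 6 cows, a value was listed where the gap to its nearest neighbour exceeded 0.625 of the group's range, which chance gives in about 1 in 20 groups of normally distributed values. CPM values are skewed, and over all genes tested 13.1% of groups met this rule on CPM. Of 68 gene and group combinations 25 were listed, 14 of them for control cow 5 and 10 for supplemented cow 6, so most listed values come from the same libraries. On the log2 CPM scale, tried after the data were seen, 7 of the 68 met the rule (10.3%), against 8.01% over all genes tested.

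In control cow 5 the listed CPM were 268 for ISG15 (next highest control 74.8), 189 for IFIT1 (51.7), 245 for IFIT2 (60.3), 123 for IFIT5 (42.5), 28.3 for RSAD2 (12.2), 103 for IFIH1 (52.3), 94.0 for DHX58 (44.7), 90.0 for IRF7 (46.5), 111 for HERC6 (51.6), 90.1 for PARP9 (59.6), 128 for PARP14 (83.8), 63.0 for DTX3L (39.1), 16.2 for CMPK2 (6.85) and 15.3 for IFI44 (7.16).

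In supplemented cow 6 they were 1101 for IFIT3 (next highest supplemented 150), 893 for SAMD9 (208), 423 for STAT2 (132), 69.7 for RSAD2 (17.0), 128 for IFIH1 (63.1), 130 for HERC6 (61.6), 126 for PARP9 (69.7), 89.3 for DTX3L (50.8), 14.7 for CMPK2 (6.24) and 29.5 for IFI44 (10.3). MX1 of supplemented cow 2, at 61.4 CPM against 349 in the next lowest supplemented cow, was the only low value listed. The causes were not tested.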

How the results depend on the processing

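No paired analysis was possible because the labels give cow identifiers and no replicate numbers shared between groups. Under 11 other fits and the omission of each cow, 0 members had an adjusted p under 0.05. Over all genes DESeq2 called 2, and edgeR and limma-voom called 0. Without control cow 5 an unadjusted p under 0.05 was found for 3 members (IFIT5, RSAD2 and DTX3L), against 3.25% of all genes. In that fit 30 of 34 member fold changes were positive, against 52.3% of all genes. Without supplemented cow 6 only 7 were, against 48.9% of all genes. The median member fold change ranged from -0.16 to 0.28 over these omissions, and the correlation between members (0.54 to 0.66) stayed positive. Among the genes named, low counts limit the precision of IFNG, OAS2, IFITM5 and CMPK2.

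No member passed, and the signs of several turned, including IFIT3, SAMD9, IFIT2 and OAS2 with fold changes well away from 0. The cause was not tested. With no scaling factor 14 members and 40.9% of all genes were positive, with limma-voom 22 members and 50.3%. Log2 fold changes of the turned sign were 0.0031 for ZBP1 with DESeq2 size factors and 0.0021 with DESeq2. With upper-quartile scaling they were -0.016 for IRF9, -0.0033 for PARP12, -0.042 for EIF2AK2 and -0.019 for TRIM21, and with no scaling factor -0.050, -0.035, -0.093 and -0.069 for the same genes and -0.0042 for ADAR. Limma-voom gave 0.17 for MX2, 0.38 for IFIT2, 0.0049 for DHX58, -0.036 for EIF2AK2 and 0.44 for OAS2. The index term gave -0.017 for PARP12, -0.030 for PARP14 and -0.16 for EIF2AK2. With the neutrophil score as a term the values were 0.18 for MX1, -0.27 for IFIT1, -0.025 for IFIT3, -0.098 for STAT2, -0.078 for IRF9, -0.081 for HERC6, -0.023 for PARP9, -0.013 for PARP12, -0.059 for EIF2AK2, -0.061 for SAMD9 and -0.057 for TRIM21. With the B cell score they were 0.16 for MX1, -0.12 for IFIT1, -0.055 for STAT2, -0.11 for IRF9, -0.035 for HERC6, -0.0065 for PARP9, -0.023 for PARP12, -0.0097 for EIF2AK2, -0.0046 for SAMD9, -0.075 for TRIM21 and -0.034 for LGALS9. With the monocyte score, added after the data were seen, they were 0.24 for MX1, -0.24 for IFIT1, -0.050 for STAT2, -0.094 for IRF9, -0.081 for HERC6, -0.0059 for PARP9, -0.021 for PARP12, -0.014 for SAMD9, -0.058 for TRIM21 and -0.089 for LGALS9.

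Without replicate cows, each left out in turn, 28 members changed sign at least once. The ranges were -0.0051 to 0.14 for ADAR, -0.61 to 0.28 for CMPK2, -0.23 to 0.25 for DHX58, -0.17 to 0.16 for EIF2AK2, -0.15 to 0.71 for HERC6, -0.053 to 0.89 for IFI44, -0.041 to 0.49 for IFIH1, -0.31 to 1.40 for IFIT1, -0.63 to 1.07 for IFIT2, -0.28 to 2.18 for IFIT3, -0.67 to 0.28 for IRF1, -0.34 to 0.14 for IRF7, -0.12 to 0.18 for IRF9 and -0.97 to 0.66 for ISG15. They were -0.0085 to 0.80 for LGALS9, -0.19 to 0.20 for MX1, -0.45 to 0.37 for MX2, -0.75 to 0.59 for OAS2, -0.015 to 0.14 for PARP12, -0.013 to 0.21 for PARP14, -0.12 to 0.30 for PARP9, -0.22 to 0.98 for SAMD9, -0.21 to 0.013 for SP110, -0.20 to 0.65 for STAT2, -0.13 to 0.14 for TRIM21, -0.21 to 0.15 for UBA7, -0.28 to 0.16 for XAF1 and -0.21 to 0.26 for ZBP1.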
